A study of Mus musculus with 33 samples.

Results

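The comparison is between germ-free and conventionally raised mice that all received morphine, and its members were chosen by their group labels: 5 germ-free morphine libraries (GF) and 5 morphine libraries of mice on plain drinking water (H2O), 10 of the 33 libraries of the series. Each library is bulk RNA sequencing of polyadenylated RNA from the nucleus accumbens, a ventral part of the striatum, and stands for 1 mouse, going by the titles. The GF mice were C57BL/6J mice bred and kept in isolators at the study's own institution, on sterilised food and water, and were matched in age to the others. The H2O mice were C57BL/6J mice from a commercial supplier, 7 to 9 weeks old, with a normal microbiome. Both groups were injected with morphine at 20 mg/kg per day for 7 days, so morphine is shared and is not what differs between them. No gene was altered in either group. GF and H2O mice differ in microbiome, in breeding colony, in housing and in the sterilisation of their food, and these cannot be told apart here. The labels give neither the cage nor the sex of a mouse, and no extraction or sequencing batch, so whether the GF libraries were made apart from the H2O libraries cannot be told either.

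The nucleus accumbens receives dopamine from the midbrain, and its principal cells are inhibitory medium spiny neurons that carry dopamine and opioid receptors. Morphine acts on the mu opioid receptor, and repeated doses are known to leave lasting changes of gene expression in this region. Proteins that enter the secretory pathway fold in the endoplasmic reticulum (ER) with the help of resident chaperones, and the genes of these chaperones are induced together when unfolded protein accumulates. Corticosterone, the main glucocorticoid of rodents, enters the brain and activates a receptor that binds DNA and induces a separate set of genes. Germ-free rodents are used to ask what a body without microbes looks like, and an altered hormonal stress response has been described in them.

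Reads counted to genes were fewer in GF libraries, with 7.29, 6.91, 6.84, 6.21 and 5.84 M (megareads) in replicates 1, 2, 3, 5 and 6, than in H2O libraries, with 9.47, 13.4, 15.3, 13.2 and 11.96 M in replicates 2 to 6. The groups did not overlap in depth. The share of tallied reads given to no gene was 22.1% to 35.4% in GF libraries and 21.0% to 22.4% in H2O libraries. GF replicate 5 stood apart on the first principal component of log2 CPM (counts scaled per megaread), with 19.8% of its reads lacking a unique place in the genome, against 9.03% to 12.5% in the other GF libraries and 9.85% to 10.5% in H2O libraries. H2O replicate 4 stood apart on the second component and held 1005 CPM of Slc17a7, the vesicular glutamate transporter of cortical neurons, which medium spiny neurons lack. The main counts are also given without these libraries. Defining markers of the labelled region were present: Drd1a and Drd2, the dopamine receptor genes of both classes of medium spiny neuron, averaged 206 and 109 CPM in GF libraries, against 245 and 136 CPM in H2O libraries. As for sex, which the labels do not give, the Y-linked gene Ddx3y stood at 39.0 to 57.8 CPM in the 10 libraries. Xist was at 0.738 CPM or less in each, so the levels of both genes were those of male mice.

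**Figure D1:**
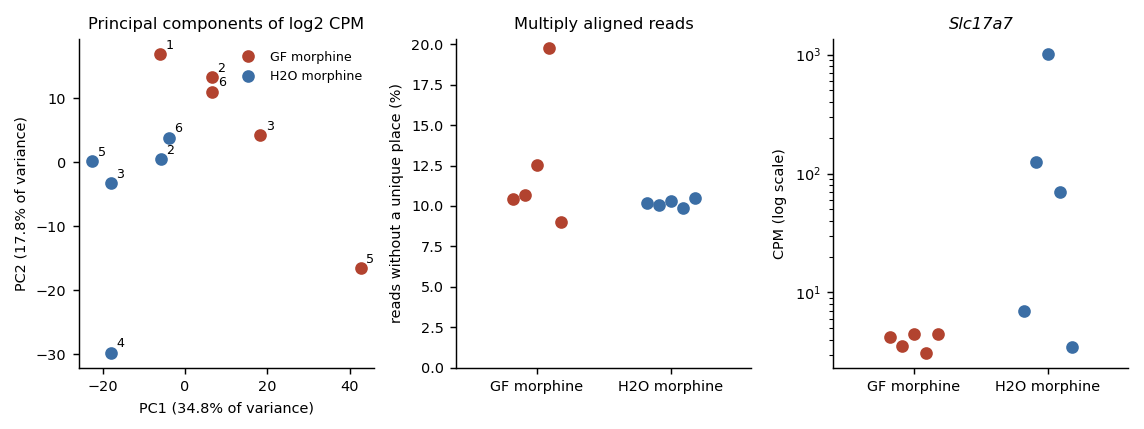
Left, the 10 libraries on the principal components PC1 and PC2 of log2 CPM, with replicate numbers; middle, percent of tallied reads without a unique place; right, Slc17a7 in CPM on a log scale. Each point is 1 library, and GF replicate 5 (PC1 42.7, 19.8% of reads) and H2O replicate 4 (PC2 -29.8, 1005 CPM) lie away from their groups.

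Of 13706 genes tested with edgeR's quasi-likelihood test, 328 (2.39%) passed an adjusted p of 0.05, a change that is written below as "called". Of these, 201 (1.47% of genes tested) were higher and 127 (0.927%) were lower in GF mice. Most changes were modest: the median size among called genes was 0.57 on the log2 scale, and 37 genes passed a 2-fold change. Genes of ER protein folding, of the cytosolic heat-shock response and of the glucocorticoid response were called higher, and genes of cholesterol synthesis and uptake were called lower. Lists of opioid genes, medium spiny neuron markers, GABA signalling genes and glutamate receptor genes held no called member, and 1 GABA gene was called higher without both libraries that stood apart. Without regard to the test, 430 genes (3.14%) had every GF library above every H2O library and 375 (2.74%) had every one below. Genes named below for the size of their change or for a small p were chosen among called genes without overlap. Their lack of overlap was thus set by the choice.

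How many genes were called rested on single libraries. Leaving out GF replicate 3, H2O replicate 3 or H2O replicate 5 gave 61, 53 and 68 calls. Leaving out GF replicate 2, GF replicate 6 or H2O replicate 2 gave 137, 151 and 147, while leaving out GF replicate 1 gave 584. Without both libraries that stood apart, 444 genes were called, 273 higher and 171 lower. The genes called in each of these 10 leave-one-out fits numbered 51, of which 41 were higher and 10 lower. In bulk RNA, a gene that is lower because fewer cells express it and one that is lower because each cell holds less of its RNA cannot be told apart.

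**Figure D2:**
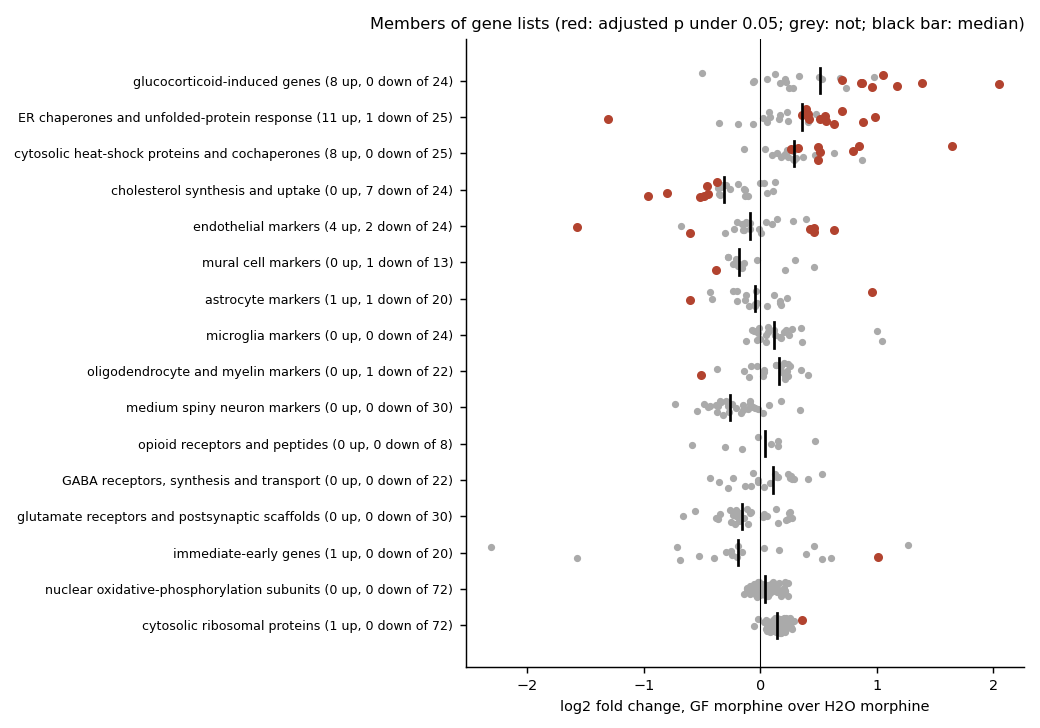
Each point is a tested gene of the list named at the left, at its log2 fold change of GF morphine over H2O morphine mice; red points passed an adjusted p of 0.05, grey points did not, and the black bar is the list's median. The ER chaperone, heat-shock and glucocorticoid lists lie to the right with medians of 0.36, 0.29 and 0.52, and the cholesterol list to the left with -0.31.

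Chaperone and folding-enzyme genes of the ER were higher in GF mice. From the ER list, which had 25 tested members, 11 were called higher (44.0%, against 1.47% of all genes tested) and 1 lower, with a median log2 fold change of 0.36 against -0.01 over all genes. Hspa5 encodes BiP, the main chaperone of the ER lumen and the sensor of its folding load. Its level was 659, 563, 562, 499 and 574 CPM in the GF libraries and 334, 279, 294, 296 and 345 CPM in the H2O libraries. The groups did not overlap, and its adjusted p was the smallest of the comparison together with that of Ndn (log2 fold change 0.89 ± 0.09, adjusted p = 0.00115).

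The protein disulfide isomerase genes were higher as well, and those named here lay above every H2O library in each GF library. Pdia4 stood at 78.3, 71.7, 72.6, 62.6 and 71.9 CPM in GF libraries and at 46.0, 40.2, 44.7, 45.2 and 43.7 CPM in H2O libraries (log2 fold change 0.70 ± 0.07, adjusted p = 0.0012). Pdia6 averaged 161 ± 6.82 CPM in GF and 109 ± 4.63 CPM in H2O libraries (SD, n = 5 each; log2 fold change 0.56 ± 0.06, adjusted p = 0.00122). Pdia3, which acts on glycoproteins together with calreticulin, averaged 255 ± 4.78 CPM in GF and 194 ± 13.1 CPM in H2O libraries (log2 fold change 0.39 ± 0.06, adjusted p = 0.00991).

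Sdf2l1, a partner of BiP, had the largest rise of the list. Its level was 18.8, 14.9, 15.2, 17.2 and 12.2 CPM in GF and 7.63, 7.88, 8.56, 7.13 and 8.41 CPM in H2O libraries (log2 fold change 0.98 ± 0.12, adjusted p = 0.00399). The lectin chaperone gene Calr averaged 486 ± 20.0 CPM in GF and 363 ± 14.4 CPM in H2O libraries (log2 fold change 0.42 ± 0.06, adjusted p = 0.00609), and Hsp90b1, the ER member of the Hsp90 family, 524 ± 13.01 and 394 ± 23.5 CPM (log2 fold change 0.41 ± 0.06, adjusted p = 0.00727). Xbp1, whose spliced mRNA encodes a transcription factor of the unfolded-protein response, averaged 135 ± 9.28 CPM in GF and 87.4 ± 10.2 CPM in H2O libraries (log2 fold change 0.63 ± 0.09, adjusted p = 0.00557). Counts per gene do not separate its spliced from its unspliced form. Smaller called rises were those of Manf (0.55), a secreted ER protein with neurotrophic activity, Creld2 (0.51) and Herpud1 (0.36), which takes part in the disposal of misfolded ER proteins.

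Trib3 moved the other way. It encodes a pseudokinase that is induced through the ATF4 branch of the stress response, and it stood at 2.24, 0.590, 1.58, 0.937 and 1.37 CPM in GF libraries and at 2.97, 4.20, 2.79, 3.79 and 3.08 CPM in H2O libraries (log2 fold change -1.31 ± 0.27, adjusted p = 0.032). It was low throughout, and it was called in 3 of the 10 leave-one-out fits. Hspa5, Pdia4, Pdia6, Sdf2l1, Manf, Xbp1, Calr, Hsp90b1 and Pdia3 were called in all 10. The number of ER members called higher lay between 9 and 13 when single libraries were left out and was 11 without both libraries that stood apart.

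The ER stress response element, searched on both strands as CCAAT and CCACG with 9 unspecified bases between them, is a DNA element through which ER chaperone genes are known to be induced. It lay in the promoter window of 7 of 21 ER list members that have a window (33.3%) and in 37 of 27025 genes with a window (0.137%). These windows run from 250 bases before to 50 after a gene's start (RefSeq, build GRCm38.p6). Of 11 called list members with a window, 5 held the element. The stretches are shown for these called genes and for Canx and Dnajc3, which held it and were not called, because they carry the element searched for. Each runs 5′ to 3′ along the gene's strand, and the capitals mark the element, which reads CGTGG to ATTGG where it lies on the opposite strand.
Hspa5: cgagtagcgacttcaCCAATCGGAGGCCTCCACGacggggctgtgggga
Pdia6: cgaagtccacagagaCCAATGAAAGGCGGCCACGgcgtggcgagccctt
Calr: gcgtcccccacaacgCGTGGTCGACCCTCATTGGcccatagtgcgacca
Creld2: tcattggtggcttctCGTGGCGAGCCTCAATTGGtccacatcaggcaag
Hsp90b1: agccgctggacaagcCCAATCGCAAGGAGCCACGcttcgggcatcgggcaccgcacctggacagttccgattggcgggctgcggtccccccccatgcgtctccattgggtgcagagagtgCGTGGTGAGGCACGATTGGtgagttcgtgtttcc
Canx: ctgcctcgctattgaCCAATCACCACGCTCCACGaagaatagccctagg
Dnajc3: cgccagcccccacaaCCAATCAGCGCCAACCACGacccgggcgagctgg
The stretches lie at chr2:34772010-34772058 for Hspa5, chr12:17266476-17266524 for Pdia6, chr8:84847060-84847108 for Calr, chr15:88819505-88819553 for Creld2, chr10:86705518-86705671 for Hsp90b1, chr11:50325785-50325833 for Canx and chr14:118937812-118937860 for Dnajc3, on the plus strand for Hspa5, Pdia6, Creld2 and Dnajc3 and on the minus strand for the others. A match describes these letters and is not a test of binding. Among the 7 genes, Hspa5 with its element at -65 relative to the start had the largest change, while Canx, the membrane lectin chaperone gene, averaged 391 ± 23.0 CPM in GF and 351 ± 16.3 CPM in H2O libraries (log2 fold change 0.16 ± 0.06, adjusted p = 0.193), and the cochaperone gene Dnajc3 70.4 ± 4.73 and 59.7 ± 4.79 CPM (log2 fold change 0.24 ± 0.07, adjusted p = 0.103).

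Cytosolic chaperones of the heat-shock list were also higher in GF mice, with 8 of 25 tested members called higher (32.0%, against 1.47%) and 0 lower, and a median of 0.29. Hspa8, the abundant constitutive chaperone that clears clathrin coats, stood at 1735, 1613, 1578, 1663 and 1698 CPM in GF libraries and at 1264, 1079.8, 1251, 1094 and 1176 CPM in H2O libraries (log2 fold change 0.50 ± 0.07, adjusted p = 0.00582). The groups did not overlap. Chordc1, which encodes a cochaperone of Hsp90, stood at 60.4, 52.5, 67.6, 58.9 and 49.96 CPM in GF libraries and at 35.4, 26.6, 35.4, 31.6 and 38.1 CPM in H2O libraries, again without overlap (log2 fold change 0.79 ± 0.11, adjusted p = 0.00557). The stress-inducible Hspa1b was low in both, at 6.86, 5.17, 8.61, 5.93 and 4.64 CPM in GF and 2.44, 0.976, 3.65, 1.52 and 1.33 CPM in H2O libraries (log2 fold change 1.65 ± 0.31, adjusted p = 0.0243). It shares most of its sequence with Hspa1a, so its counts depend on how reads were divided between them and are uncertain.

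The remaining called members were the Hsp40-type cochaperone genes Dnaja1 (0.49) and Dnajb4 (0.51), the small heat-shock protein gene Hspb1 (0.85), Ahsa1 (0.27), an activator of Hsp90, and Hsf1 (0.33), the transcription factor of the heat-shock response. This count was less stable than that of the ER list. It was 2 without GF replicate 3, H2O replicate 3 or H2O replicate 5, 5 without GF replicate 2 or H2O replicate 2, and 10 without both libraries that stood apart. Chordc1 and Hspa8 were called in all 10 leave-one-out fits. The heat-shock element, searched on both strands as GAA, TTC and GAA with 2 unspecified bases between neighbours, lay in the windows of 4 of 20 list members and of 179 of 27025 genes (0.662%). Of the 6 called members with a window, Chordc1 alone held it, with 3 overlapping matches, which are in capitals in its stretch at chr9:18292248-18292300, plus strand.
Chordc1: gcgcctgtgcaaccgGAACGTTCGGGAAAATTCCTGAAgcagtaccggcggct

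In GF mice, genes known to be induced by glucocorticoids were higher. The list had 24 tested members, of which 8 were called higher (33.3%, against 1.47%) and 0 lower, with a median log2 fold change of 0.52. The mean log2 CPM of the list was 5.08 ± 0.18 in GF and 4.53 ± 0.08 in H2O libraries (SD, n = 5 each), and each GF library lay above every H2O library. Plin4, which encodes a coat protein of lipid droplets, stood at 11.9, 12.5, 17.2, 16.5 and 29.9 CPM in GF libraries and at 2.33, 4.28, 4.91, 4.17 and 5.17 CPM in H2O libraries (log2 fold change 2.05 ± 0.26, adjusted p = 0.00456). All 5 GF libraries were above all H2O libraries, and GF replicate 6 was the highest.

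Sgk1, a kinase that regulates ion channels and transporters, stood at 90.7, 164, 184, 197 and 188 CPM in GF libraries and at 75.1, 75.7, 71.1, 74.5 and 67.9 CPM in H2O libraries (log2 fold change 1.18 ± 0.16, adjusted p = 0.00609). GF replicate 1 was closest to the H2O range, and the H2O libraries were tightly grouped. Tsc22d3, which encodes the leucine zipper protein GILZ, showed the same pattern with 82.9, 111, 147, 139.6 and 146 CPM in GF libraries and 62.0, 58.0, 61.8, 56.5 and 63.2 CPM in H2O libraries (log2 fold change 1.05 ± 0.14, adjusted p = 0.00456). Zbtb16, a zinc finger transcription factor gene, stood at 24.8, 23.3, 29.8, 14.4 and 29.0 CPM in GF libraries and at 9.96, 7.43, 13.01, 7.74 and 8.00 CPM in H2O libraries (log2 fold change 1.39 ± 0.20, adjusted p = 0.00623), and here GF replicate 5 was the lowest of its group. These 4 genes were called in all 10 leave-one-out fits.

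The other called members were Gjb6 (0.96), a connexin gene of astrocytes, in which GF replicate 1 lay within the H2O range, the sulfotransferase gene Sult1a1 (0.87), the kinase gene Map3k6 (0.87) and Rasd1 (0.70), a small GTPase gene first described as induced by dexamethasone. Fkbp5, a cochaperone of the glucocorticoid receptor and a frequently used readout of its activity, averaged 74.1 ± 9.30 CPM in GF and 62.5 ± 6.68 CPM in H2O libraries and was not called (log2 fold change 0.25 ± 0.10, adjusted p = 0.185). Without GF replicate 3 or H2O replicate 5 the list had 4 members called higher, without GF replicate 6 or H2O replicate 3 it had 5, and without both libraries that stood apart 9. The glucocorticoid response element, searched on both strands in the strict form AGAACA and TGTTC with 3 unspecified bases between them, lay in the windows of 14 of 27025 genes (0.0518%). Sgk1 was the only one of 22 list members with a window that held it. Overlapping matches on both strands are in capitals in its stretch at chr10:21993686-21993730, plus strand.
Sgk1: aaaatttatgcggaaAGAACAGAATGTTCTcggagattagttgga

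**Figure D3:**
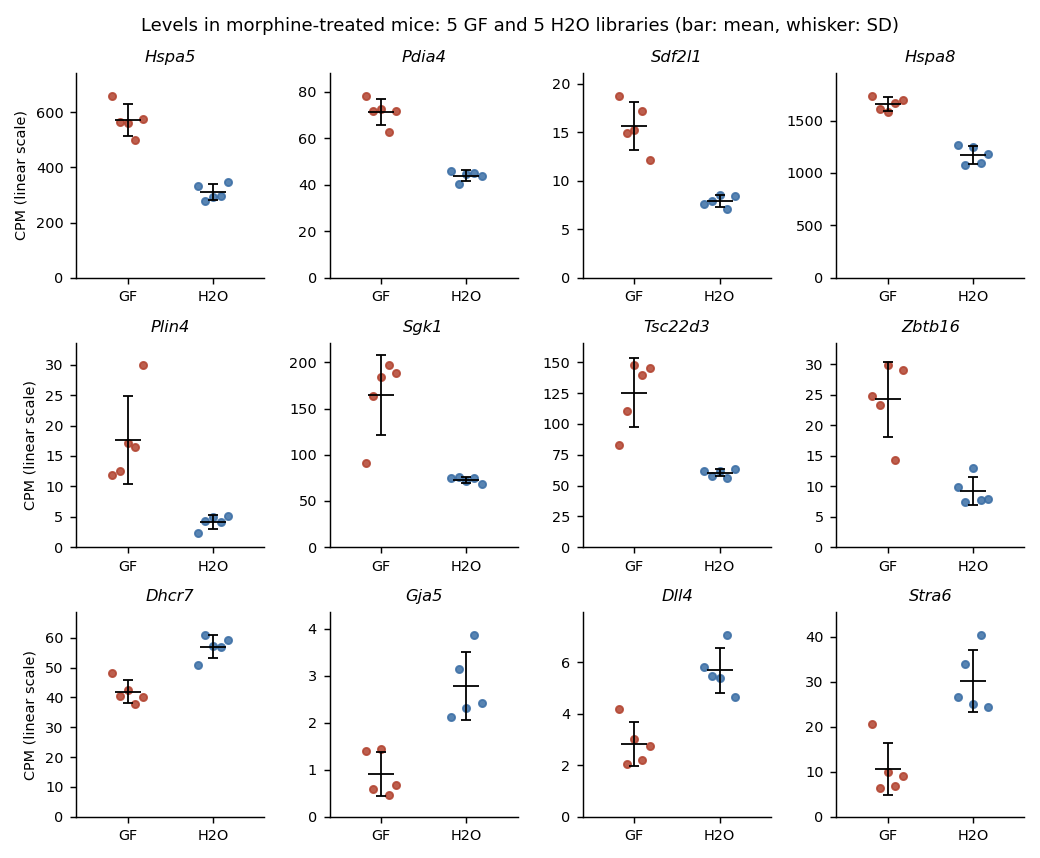
CPM on a linear axis from 0 for 12 genes, 1 point a library, with the mean and SD of each group (n = 5); GF morphine at the left of each panel and H2O morphine at the right. ER and heat-shock chaperones (top row) and glucocorticoid-induced genes (middle row) are higher in GF libraries without overlap, and Dhcr7, Gja5, Dll4 and Stra6 (bottom row) are lower without overlap. Hspa5, Pdia4, Plin4, Sgk1, Zbtb16, Gja5, Dll4 and Stra6 met a rule of choice that requires lack of overlap.

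Genes of cholesterol synthesis and uptake were lower in GF mice: 7 of 24 tested members were called lower (29.2%, against 0.927% of all genes) and 0 higher, with a median of -0.31. Dhcr7, an enzyme of the last steps of cholesterol synthesis, stood at 48.2, 40.6, 42.3, 37.9 and 40.2 CPM in GF libraries and at 50.7, 60.9, 57.2, 56.9 and 59.2 CPM in H2O libraries (log2 fold change -0.45 ± 0.08, adjusted p = 0.0175). The groups did not overlap, and GF replicate 1 came closest to the H2O range. It was called in 7 of the 10 leave-one-out fits. Insig1, which encodes the sterol-regulated retention protein of the pathway, stood at 36.8, 42.7, 51.6, 48.6 and 38.8 CPM in GF libraries and at 62.6, 63.4, 70.5, 59.7 and 49.1 CPM in H2O libraries, where the lowest value, that of replicate 6, lay within the GF range (log2 fold change -0.48 ± 0.11, adjusted p = 0.0445).

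Mvd (-0.38), an enzyme that makes the isoprenoid building block, and Stard4 (-0.52), a sterol carrier, were also among the called members, and neither overlapped between groups. The number of members called lower was 1 without GF replicate 3, H2O replicate 3 or H2O replicate 5, 2 without GF replicate 6, 3 without GF replicate 2, H2O replicate 2 or H2O replicate 4, 4 without GF replicate 1, and 4 without both libraries that stood apart. H2O replicate 4 held the highest summed level of the list, 1645 CPM, against 1323 to 1465 in the other H2O libraries and 1147 to 1255 in GF libraries.

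Vascular genes moved in both directions. Among 24 endothelial markers, 4 were called higher (16.7%, against 1.47% of all genes) and 2 lower (8.33%, against 0.927%), with a median of -0.09, and without both libraries that stood apart 3 were higher and 3 lower. Higher were Slc2a1 (0.42), the glucose transporter of the blood-brain barrier, Mfsd2a (0.46), its transporter of docosahexaenoic acid, and the surface protein genes Ly6a (0.63) and Ly6c1 (0.46). Lower were Kdr (-0.60), a receptor of vascular endothelial growth factor, and Gja5, a connexin gene of arterial endothelium. Gja5 stood at 1.40, 0.590, 1.43, 0.468 and 0.687 CPM in GF libraries and at 2.12, 3.15, 2.32, 3.87 and 2.42 CPM in H2O libraries (log2 fold change -1.57 ± 0.31, adjusted p = 0.0271). The groups did not overlap, but these are few reads per library.

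Further genes known from arterial endothelium were among the largest declines. Dll4, a Notch ligand, stood at 4.20, 2.07, 3.01, 2.19 and 2.75 CPM in GF libraries and at 5.83, 5.48, 5.38, 7.06 and 4.67 CPM in H2O libraries (log2 fold change -0.99 ± 0.20, adjusted p = 0.0283). Gkn3, which marks arterial endothelial cells in mouse brain, averaged 2.83 ± 0.334 CPM in GF and 6.45 ± 2.34 CPM in H2O libraries (log2 fold change -1.18 ± 0.24, adjusted p = 0.0295). Neither pair of groups overlapped. Cd163, a scavenger receptor gene of macrophages around vessels, averaged 3.78 ± 1.91 CPM in GF and 9.49 ± 2.37 CPM in H2O libraries (log2 fold change -1.30 ± 0.28, adjusted p = 0.0365). Mrc1, which also marks these macrophages, was not called and had the other sign, at 2.10, 2.95, 4.59, 1.87 and 2.23 CPM in GF and 1.17, 1.28, 1.66, 1.06 and 1.67 CPM in H2O libraries, without overlap (adjusted p = 0.0694). Of 13 mural cell markers 1, Pdgfrb (-0.38), was called lower (7.69%, against 0.927%), and none without both libraries that stood apart. Of 24 microglia markers 0 were called in either direction, against 2.39% of all genes, and 1 was higher without both libraries. The summed level of the endothelial list was 1038 to 1156 CPM in GF and 996 to 1061 CPM in H2O libraries.

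Among the remaining genes with the largest rises, Ndn had the smallest p of the comparison together with Hspa5. It encodes necdin, an imprinted gene of the region that is lost in Prader-Willi syndrome in humans, and stood at 362, 357, 451, 539.6 and 466 CPM in GF libraries and at 213, 152, 143, 135 and 145 CPM in H2O libraries (log2 fold change 1.47 ± 0.14, adjusted p = 0.00115). Ftx, a noncoding RNA gene of the X-inactivation centre, averaged 34.98 ± 4.21 CPM in GF and 17.6 ± 2.07 CPM in H2O libraries (log2 fold change 0.99 ± 0.11, adjusted p = 0.00122). Slc5a3, the transporter of the osmolyte myo-inositol, averaged 57.6 ± 6.14 CPM in GF and 34.1 ± 3.55 CPM in H2O libraries (log2 fold change 0.76 ± 0.09, adjusted p = 0.00338). Neither overlapped between groups. Tmco5 (1.37), Plekhf1 (1.23), Spp1 (1.42), which encodes the matrix protein osteopontin, and Cd44 (1.15), a receptor of osteopontin and hyaluronan, were higher at low levels. Ttn, the titin gene, was 3.36, 2.66, 9.32, 2.65 and 3.26 CPM in GF libraries and 1.17, 1.20, 1.59, 1.37 and 1.5 CPM in H2O libraries (log2 fold change 1.63 ± 0.35, adjusted p = 0.0347). Its largest value came from GF replicate 3, without which the change was 1.12 and still called. It was not called without GF replicate 6 or without any 1 of the H2O libraries (adjusted p from 0.0508 to 0.104).

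The genes with the largest declines included Stra6, the membrane receptor for retinol uptake, at 20.6, 6.49, 9.90, 6.87 and 9.10 CPM in GF libraries and 26.6, 33.9, 25.1, 40.4 and 24.4 CPM in H2O libraries (log2 fold change -1.49 ± 0.27, adjusted p = 0.0207). GF replicate 1 was nearer to the H2O range than the other GF libraries. Dsg2, a desmosomal cadherin gene (-1.42), Xrra1 (-1.26) and Hs6st3 (-1.14), a heparan sulfate sulfotransferase gene, were lower. So were Mak (-1.05), a kinase gene known from germ cells and cilia, and the transcription factor gene Pax6 (-0.99). Lack of overlap was a condition for naming these genes. With smaller changes but small p, Exoc6 (-0.61), an exocyst subunit gene, Tekt5 (-0.69), Plekho2 (-0.70), Ephb6 (-0.57), a kinase-inactive ephrin receptor gene, and the polarity gene Pard6b (-0.82) were called lower in all 10 leave-one-out fits. Of the genes named for the size of their change, Gh, Plin4, Ndn, Zbtb16, Tmco5, Plekhf1 and Sgk1 were called in all 10.

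Genes of opioid and dopamine signalling gave no call. Of 8 opioid receptor and peptide genes and 30 medium spiny neuron markers, 0 were called in either direction, with medians of 0.04 and -0.26. As 2.39% of all genes were called, lists of this length would hold few calls or none at that share. Of the 30 medium spiny neuron markers, 4 had a positive log2 fold change, against 6643 of all 13706 genes tested. With DESeq2, 1 of these markers was called higher and 1 lower. Oprm1, the receptor on which morphine acts, stood at 9.10, 9.00, 6.31, 2.97 and 10.5 CPM in GF libraries and at 8.05, 8.41, 4.51, 8.50 and 8.91 CPM in H2O libraries (log2 fold change -0.02 ± 0.27, adjusted p = 0.982). The ranges overlapped, and the lowest value of each group came from the library that stood apart in it, GF replicate 5 and H2O replicate 4. The enkephalin gene Penk (log2 fold change 0.15 ± 0.13, adjusted p = 0.53), the dynorphin gene Pdyn (log2 fold change -0.16 ± 0.18, adjusted p = 0.652), Drd1a (log2 fold change -0.25 ± 0.15, adjusted p = 0.348) and Drd2 (log2 fold change -0.32 ± 0.17, adjusted p = 0.309) overlapped between groups too. Leaving out both libraries that stood apart left the signs of Drd1a, Drd2 and Pdyn as they were, and none of these genes passed the threshold.

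Immediate-early genes, which follow recent neuronal activity, held 1 call higher among 20 (5%, against 1.47%), 3 without both libraries that stood apart and 3 with DESeq2. Fosb, whose product accumulates in the striatum under repeated drug exposure, stood at 60.5, 30.1, 47.0, 32.2 and 43.4 CPM in GF libraries and at 16.3, 25.0, 21.97, 29.0 and 13 CPM in H2O libraries, without overlap (log2 fold change 1.01 ± 0.23, adjusted p = 0.0385), and was called in 4 of the 10 leave-one-out fits. Fos itself ranged from 8.41 to 37.7 CPM in GF and from 5.58 to 46.7 CPM in H2O libraries (log2 fold change -0.19 ± 0.44, adjusted p = 0.834). Among 37 listed potassium channel genes, 1 was called higher (2.70%, against 1.47%) and 0 lower, with a median of -0.15. Outside the list, the potassium channel gene Kcnj11 was called lower (-0.41). The listed gene that was called is Kcnn2, a calcium-activated channel that shapes the pauses between spikes. It stood at 21.4, 18.3, 24.1, 20.8 and 21.98 CPM in GF libraries and at 11.8, 11.9, 15.6, 11.3 and 11.2 CPM in H2O libraries (log2 fold change 0.78 ± 0.11, adjusted p = 0.00623). Nts, the gene of the neuropeptide neurotensin, which was chosen after its values were seen, stood at 56.0, 50.5, 72.0, 68.5 and 64.4 CPM in GF libraries and at 41.0, 33.6, 20.8, 27.0 and 32.8 CPM in H2O libraries (log2 fold change 1.01 ± 0.16, adjusted p = 0.00928). Neither overlapped between groups. The clock output gene Dbp (-0.41) was the single call among 19 clock genes (5.26% lower, against 0.927% of all genes). Among 72 ribosomal protein genes, Rpl14 (0.36) was the single call (1.39% higher, against 1.47%), and 7 were called with DESeq2. Of these ribosomal genes, 70 had a positive log2 fold change, with a median of 0.14, against 6643 of all 13706 genes tested. Of 72 subunit genes of oxidative phosphorylation 0 were called, against 2.39% of all genes.

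Markers of neighbouring tissue differed between libraries. Slc17a7 stood at 4.20, 3.54, 4.45, 3.12 and 4.46 CPM in GF libraries and at 6.99, 124, 1005, 69.9 and 3.499 CPM in H2O libraries (log2 fold change -5.94 ± 1.41, adjusted p = 0.0475). Its high values were those of H2O replicates 3, 4 and 5, and it was called in 2 of the 10 leave-one-out fits. Without replicate 4 it was -3.70 with an adjusted p of 0.0572. The 16 cortical markers summed to 466 to 508 CPM in GF and 452 to 2095 CPM in H2O libraries, and Lamp5, 1 of them, was called higher (0.43). The 22 hypothalamic markers summed to 890 to 1315 CPM in GF and 594 to 1364 CPM in H2O libraries. Oxt, 1 of them, did not pass the count filter and went the other way, with 19 reads over the GF and 398 over the H2O libraries. It was highest in H2O replicates 2 and 3, at 23.2 and 12.5 CPM. The 11 tested markers all had a positive log2 fold change, with a median of 0.41. Of these, Crh, the gene of corticotropin-releasing hormone, was called higher, at 12.6, 12.3, 24.4, 25.8 and 27.8 CPM in GF libraries and 9.75, 6.61, 3.85, 2.50 and 8.33 CPM in H2O libraries (log2 fold change 1.75 ± 0.34, adjusted p = 0.0264). Gh, the pituitary growth hormone gene, stood at 2.24, 33.7, 16.8, 5.00 and 2.23 CPM in GF libraries and at 0, 0.375, 0, 0.0759 and 0 CPM in H2O libraries (log2 fold change 6.80 ± 1.08, adjusted p = 0.00991). Every GF library was above every H2O library, but the H2O values rest on so few reads that the size of the change is uncertain. Prl, the pituitary prolactin gene, was too low to be tested, with 46 reads over the 5 GF libraries and 1 read over the 5 H2O libraries. The 10 pituitary genes summed to 186 to 239 CPM in GF and 163 to 278 CPM in H2O libraries, but most of that sum was Chga, a gene of many neuroendocrine cells, with 203 ± 20.5 CPM in GF and 208 ± 42.1 CPM in H2O libraries. Fshb was at 0. The part of pituitary tissue in the results was not tested. A fit with the levels of the cortical and hypothalamic lists as covariates called 39 genes, 29 higher and 10 lower, with 6 of the ER, 4 of the glucocorticoid, 3 of the heat-shock and 0 of the cholesterol members.

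Some genes separated all or most GF from conventional libraries whatever the drug. Of the genes described above, Hspa5, Pdia4, Hspa8 and Slc5a3 had all 22 conventional libraries below the 11 GF libraries. So did Pdia3, Pdia6, Hsp90b1, Manf, Xbp1, Creld2, Chordc1, Dnaja1, Kcnn2 and Tmco5. Tekt5 and Pdgfrb had all 22 conventional libraries above the GF libraries. The separation was less complete for the 3 genes that follow. Ide and Fgfbp3 are neighbours on chromosome 19 that lie, as is known, in a segment present in extra copies in some C57BL/6J mice. Ide stood at 46.4, 50.03, 49.2, 47.5 and 47.0 CPM in GF libraries and at 51.1, 95.4, 108, 76.3 and 109 CPM in H2O libraries (log2 fold change -0.87 ± 0.17, adjusted p = 0.0246). The GF libraries were nearly alike and the H2O libraries spread widely, with H2O replicate 2 just above the GF range. Over all 33 libraries in 1 scaling, Ide lay between 46.2 and 54.4 CPM in the 11 GF libraries of both drugs and between 50.9 and 108 CPM in the 22 libraries of conventional mice, of which 21 were above the GF range. Fgfbp3 stood at 2.80, 2.51, 4.30, 4.84 and 3.61 CPM in GF libraries and at 5.72, 9.09, 5.64, 6.75 and 6.83 CPM in H2O libraries (log2 fold change -0.92 ± 0.20, adjusted p = 0.038). Ndn lay between 305 and 609 CPM in the 11 GF libraries and between 135 and 344 CPM in the 22 others, of which 20 were below the GF range. The part of colony genetics in the results was not tested.

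**Figure D4:**
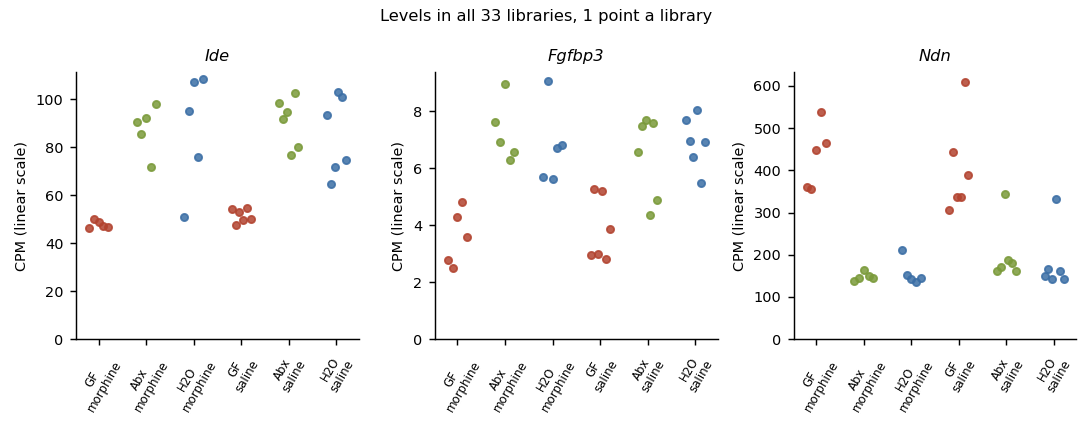
CPM on linear axes from 0 for Ide, Fgfbp3 and Ndn in all 33 libraries, 1 point a library, by group (GF, germ-free; Abx, antibiotics in the drinking water; H2O, plain water). For Ide the 11 GF libraries lie within 46.2 to 54.4 CPM and 21 of the 22 others lie above them.

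The same contrast in mice given saline used 12 other libraries, 6 GF and 6 H2O, in a fit of all 33 libraries. There 4807 of 14583 genes were called (33%), and in that same fit the morphine contrast gave 855 calls, 468 higher and 387 lower. The 328 genes below are those of the fit of the 10 libraries alone, so 328 and 4807 are not counts of like fits. Of the 328 genes called in morphine mice, 322 (98.2%) had the same sign in saline mice, against 70.4% of all 13706 genes tested, and 266 (81.1%) were called there with the same sign, against 34.5% of all tested genes that were called in saline mice in either direction. The 6 with the opposite sign in saline mice were Lamp5, Ly6a, Ly6c1, Sdk1, Sirt4 and Stard4, and none of them was called there. Hspa5 differed by 0.95 ± 0.10 (adjusted p = 1.41e-07) in saline mice, Plin4 by 2.81 ± 0.40 (adjusted p = 1.11e-05), Zbtb16 by 2.42 ± 0.29 (adjusted p = 1.32e-06), Dhcr7 by -0.41 ± 0.06 (adjusted p = 2.35e-05) and Ndn by 1.14 ± 0.20 (adjusted p = 8.99e-05). The ER list had 17 members higher and 2 lower in saline mice, the heat-shock list 18 and 0, the glucocorticoid list 16 and 0, and the cholesterol list 1 and 10, against 18.0% higher and 14.9% lower of all genes there. For morphine mice in the same fit, these lists had 14 and 1, 12 and 0, 13 and 0, and 0 and 8. Not all lists went this way. Of 72 subunit genes of oxidative phosphorylation, 0 were higher and 42 lower in saline mice, and 0 were called in morphine mice. Of 72 ribosomal protein genes, 1 was higher and 14 lower in saline mice, beside 11 and 0 in morphine mice.

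The difference between the contrasts was tested as an interaction. With edgeR 0 of 14583 genes were called (0%), while 2321 had an unadjusted p under 0.05 and DESeq2 called 238. The smallest adjusted p was 0.0671, which the 5 genes with the smallest p, Lnpep, Smg9, Hspa1l, Nabp2 and Cers6, had in common with others, among them Ly6a (0.66 ± 0.14). Lnpep, which encodes an aminopeptidase of insulin-responsive vesicles, differed by -1.22 ± 0.24 (adjusted p = 0.0671) between morphine and saline mice, being 1.05 ± 0.16 (adjusted p = 2.54e-05) in saline mice. The absence of calls does not show that the contrasts were alike. Without GF saline replicate 5 the count was 95, without GF morphine replicate 2 it was 90, without GF saline replicates 1 or 2 it was 59 and 45, and without GF morphine replicates 3 or 5 it was 20 and 5.

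**Figure D5:**
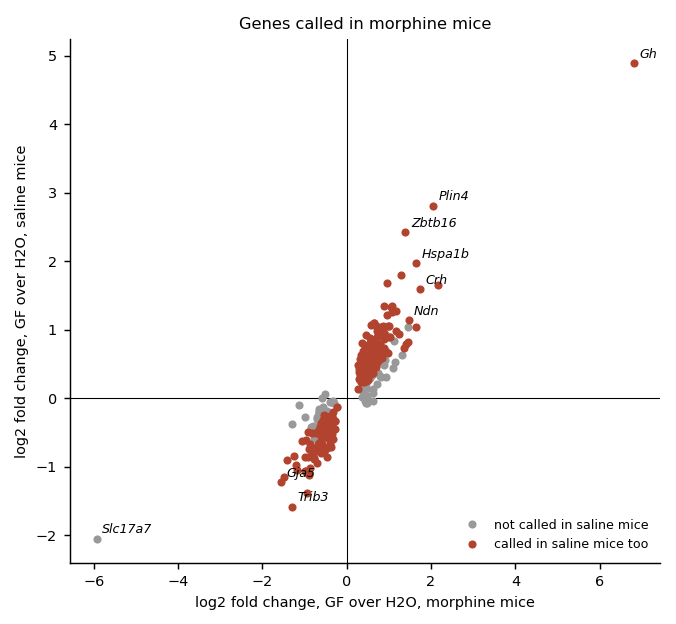
Each point is 1 of the 328 genes called between GF and H2O mice under morphine, at its log2 fold change in morphine mice (horizontal) and in the separate saline mice (vertical); red points were also called in saline mice. All but 6 points lie in the quadrants of equal sign.

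Mice given antibiotics (Abx) and morphine, whose microbiome was depleted only in adult life, were set beside both groups in the fit of all 33 libraries. The contrasts GF against Abx and Abx against H2O share libraries with the contrast above, so their values are only placed side by side. GF against Abx morphine mice gave 4091 calls (28.1%), 14.7% higher and 13.4% lower, and Abx against H2O morphine mice gave 1507 (10.3%), 4.57% higher and 5.76% lower. Of the ER list 17 members were higher and 2 lower in GF than in Abx mice, and 0 were higher and 7 lower in Abx than in H2O mice. Of the heat-shock list 18 were higher and 0 lower in GF than in Abx mice, and 1 was higher and 7 lower in Abx than in H2O mice. Hspa5 averaged 569 ± 56.7 CPM in GF, 271 ± 9.98 CPM in Abx and 308 ± 28.6 CPM in H2O morphine libraries in this scaling.

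Of the glucocorticoid list, 3 members were higher and 11 lower in GF than in Abx mice, and 14 were higher and 0 lower in Abx than in H2O mice. Plin4 averaged 17.5 ± 7.21 CPM in GF, 56.3 ± 7.37 CPM in Abx and 4.16 ± 1.10 CPM in H2O morphine libraries. Fkbp5 was lower in GF than in Abx mice (-0.86 ± 0.12, adjusted p = 6.84e-06). Sgk1 and Zbtb16 did not pass the threshold between GF and Abx mice, with differences of 0.15 ± 0.19, adjusted p = 0.564 and -0.22 ± 0.30, adjusted p = 0.62. Of 24 microglia markers, 21 were higher and 0 lower in GF than in Abx mice, 0 were higher and 16 lower in Abx than in H2O mice. Between GF and H2O morphine mice 1 was higher and 0 lower in this fit, and 0 were called in the fit of the 10 libraries alone.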

How the data were processed

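Whole-number counts per gene symbol were deposited by the authors for 33 libraries. FastQC, STAR 2.4.0 and edgeR were used, per the submitters' processing notes. The sources used here name no counting program, genome build, annotation or strand rule, so reads of overlapping and antisense genes cannot be told apart. A second deposited table of normalised values was not used. The 5 tally entries, which held 19.3% to 35.4% of tallied reads, and 27 entries whose names had become dates were left out, which left 24034 genes.

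The 10 libraries of the comparison were fitted alone in R 4.3.3 with edgeR 4.0.16 (filterByExpr at its minimum count of 10, TMM factors, glmQLFit and glmQLFTest, two-sided, Benjamini-Hochberg adjustment over 13706 genes, threshold 0.05). With 8 residual degrees of freedom, the common biological variation between libraries was 0.132 (coefficient of variation). Levels are CPM, the deposited counts scaled by library size and TMM factor, and log2 fold changes are GF over H2O, ± standard error. The saline, Abx and interaction values come from a fit of all 33 libraries with 6 group means (14583 genes). Promoter windows were read from RefSeq (GRCm38.p6) and matched by symbol. Figures were drawn with matplotlib 3.10.9.

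No pair of libraries of a group was a repeat of 1 library: chi-square per degree of freedom was 3.07 to 24.2, and log2 CPM correlated across genes with r from 0.967 to 0.993. The p-values measure the spread among libraries that the titles number as separate mice. Depth was 5.84 to 15.3 M gene reads per library. The code was tested on simulated data. Alternatives were DESeq2 1.42.0, limma 3.58.1 voom with quality weights, RLE and upper-quartile factors, other filters, thinned counts, GC and length offsets, a replicate block, marker levels as covariates and leaving out libraries.

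The comparison, the gene lists and the tests were chosen with earlier results of these data known. Named genes are the 12 higher and 12 lower with the largest change among called genes whose groups do not overlap and whose mean is at least 2 CPM in a group, without gene models, pseudogenes and ribosomal or mitochondrial genes. The 6 and 6 with the smallest p by the same limits, up to 4 members of each list and Fos, Sgk1, Fkbp5, Oprm1, Penk, Pdyn, Drd1a and Drd2 were added, as were the 5 genes with the smallest p of the interaction. Further called members of the described lists, Nts, Prl and Kcnj11 were named after their values were seen. A few genes that the rule covers are not reported here.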

Additional observations from a re-analysis of the deposited data

Results flagged for a closer look

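In 184 groups of 5 values, 14 held a library whose distance to the nearest of the others took up more of the group's range than Dixon's 95% critical value of 0.71, and chance flags about 1 in 20 groups. H2O replicate 4 held 6 of these. It was high in Slc17a7 (1005 CPM, against 3.499 to 124 in the other H2O libraries) and Kcnn2 (15.6 CPM, against 11.2 to 11.9), and low in Penk (854 CPM, against 1276 to 1375), Pdyn (233 CPM, against 394 to 449), Oprm1 (4.51 CPM, against 8.05 to 8.91) and Hspb1 (5.18 CPM, against 5.83 to 6.08).

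GF replicate 1 was high in Stra6 (20.6 CPM, against 6.49 to 9.90 in the other GF libraries), Pdyn (495 CPM, against 275 to 321) and Creld2 (30.7 CPM, against 22.9 to 24.2). GF replicate 3 was high in Ttn (9.32 CPM, against 2.65 to 3.36), and GF replicate 6 was low in Tekt5 (9.79 CPM, against 11.8 to 12.5). GF replicate 5 gave 4.20% of its gene reads to its 10 highest genes, against 2.47% to 2.86% in the other GF libraries. H2O replicate 2 was high in Ndn (213 CPM, against 135 to 152 in the other H2O libraries) and still below every GF library, and H2O replicate 3 was high in Gh (0.375 CPM, against 0 to 0.0759).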

How the results depend on the processing

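The count of 328 called genes was 871 with DESeq2, 748 with voom, 855 in the fit of all 33 libraries, 159 with thinned counts, 39 with the covariates and 53 to 584 without single libraries. Over 13619 genes, log2 fold change correlated with GC content (Spearman rho -0.294) and with transcript length (rho -0.103). The fold changes given above carry no offset for this. With GC and length offsets 458 genes were called, 276 higher and 182 lower. Medians of the glucocorticoid, ER, heat-shock and cholesterol lists were then 0.50, 0.29, 0.32 and -0.30. The labels do not say whether equal title numbers pair mice. Deviations from the group means of same-numbered libraries correlated with r of -0.13, -0.16, -0.25 and -0.05. These values show no likeness of such libraries but cannot decide whether they shared a cage or a batch. A replicate block on the title numbers called 25 genes, or 84 with GC and length offsets. Members called of the lists were, for the glucocorticoid list, 13 with DESeq2 and in the fit of all 33 libraries, 5 with the replicate block, 4 with the covariates and 4 to 11 without single libraries, against 8. For the ER list they were 2 with the replicate block and 6 with the covariates, against 11. For the heat-shock list they were 15 with DESeq2, 13 with voom, 4 with thinned counts, 0 with the replicate block, 2 with the block and offsets, 3 with the covariates and 2 to 11 without single libraries, against 8. For the cholesterol list they were 0 with the replicate block, with and without offsets, 0 with the covariates, 4 without both libraries that stood apart (an alternative chosen after seeing the data) and 1 to 6 without single libraries, against 7. The interaction had 238 calls with DESeq2 and 0 to 95 without single libraries. Upper-quartile factors moved the split of GF against H2O saline mice to 2113 higher and 2858 lower, from 2631 and 2176. The causes were not tested. Over 23 alternatives, 75 called genes kept their sign wherever they were tested, and 27.5% of these values no longer passed the threshold. The 75 are most of the called genes named in the text, without Sdk1, Sirt4 and Kcnj11. They include Sox9, Opalin and Uty, which are not described above. With thinned counts, not all of the 75 genes were tested. Signs turned only for genes that were not called: Oprm1 was 0.0239 with voom, 0.0896 with thinned counts, 0.0345 without both libraries and -0.161 to 0.186 without single ones. Penk was -0.0312 with the replicate block, -0.0362 with the block and offsets and -0.0043 with the covariates. Fos was 0.0707 with the replicate block, 0.0671 with the block and offsets, 0.371 with the covariates, 0.0164 without both libraries and -0.453 to 0.0396 without single ones. Depth limits genes of few reads, since GF libraries held 5.84 to 7.29 M gene reads, and 5 libraries a group limit the rest.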
